A study of Mus musculus with 12 samples.

Results

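The 10 genes described here follow the circadian clock in many organs of the mouse: Wee1, Usp2, Por, Tns2, Cys1, Noct, Lonrf3, Tspan4, Coq10b and Ypel2. They were taken as a list of symbols, and all 10 were found among the 38462 named gene rows of a table of 38942 rows. The list was chosen with earlier results of these data known, so its shares beside those of all genes are no independent test. The samples were dorsal root ganglia (DRG), which hold the cell bodies of the sensory neurons of the trunk and limbs, from the lumbar levels of untreated male C57BL/6J mice aged 6 to 12 weeks. Groups differ in the zeitgeber time (ZT, hours since lights on) at which the mice were killed: ZT2, ZT8, ZT14 and ZT20, with 3 libraries each and 12 in all. The labels do not tie a library to a single animal. The p-values thus set differences between times against the spread of libraries within a time. That spread may be technical in part and need not be the spread between animals. Library numbers in the labels run with time, so that a batch of preparation and the time of day cannot be told apart.

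The clock is a loop of transcription: the proteins BMAL1 and CLOCK bind E-box sequences and switch on Per and Cry genes, whose products then repress them, and REV-ERB proteins and PAR bZIP factors such as DBP pass the rhythm on through ROR elements and D-boxes. Output genes are those that read this rhythm without being needed for the loop, and the listed ones are known from surveys of several mouse tissues. Their products are of very different kinds. WEE1 is a kinase that holds back CDK1 and so delays mitosis. USP2 is a ubiquitin protease whose substrates include clock proteins, and LONRF3 is a RING finger protein. TNS2 (tensin 2) ties integrin adhesions to actin, TSPAN4 is a tetraspanin of the cell surface, and CYS1 (cystin) is a protein of the primary cilium whose loss gives polycystic kidneys in mice. POR hands electrons from NADPH to cytochrome P450 enzymes, COQ10B binds coenzyme Q in mitochondria, and NOCT (nocturnin) is an enzyme of the CCR4 family that removes a phosphate from NADPH. YPEL2 belongs to the small Yippee-like family.

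Levels are CPM, the deposited estimated counts scaled to a library size of 1000000. These values follow read coverage and not read number, so a level is roughly per base of transcript and may be compared between genes. On this scale Por had the highest mean level over the 12 libraries, 60.1 CPM. Tspan4 averaged 35.8 CPM, and Tns2 and Coq10b could not be told apart at 28.5 and 28.5 CPM. Noct averaged 17.1 CPM. Wee1, Usp2, Ypel2 and Cys1 lay close together at 9.37, 8.65, 8.62 and 8.20 CPM, with library ranges that overlap. Lonrf3 was close to absent at 0.165 CPM: its coverage was between 0.622 and 1.43 reads per base, or some 9.45 to 21.7 reads a library, which limits what can be resolved between times. All 10 genes passed the filter on low counts.

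ZT14 was the time at which the list was highest. Of the 10 genes, 7 had their highest mean at ZT14, 2 at ZT8, 1 at ZT20 and 0 at ZT2, whereas 23.35% of all 25809 tested genes were highest at ZT14. The 7 include Lonrf3, whose times could not be resolved at its depth. The lowest mean was at ZT2 for 6 genes, at ZT8 for 3 and at ZT14 for 1, for which the shares over all genes were not counted. In edgeR's test of a 24-h component 0 of 10 passed, with 0.0659% of all genes called, and in the any-time test, which asks whether the 4 times differ at all, 0 of 10 passed, with 0.0504% called. DESeq2, another count model, called 3 of the 10 in the 24-h test (Usp2, Tns2 and Cys1; 0.628% of all genes) and the same 3 in the any-time test (1.13%). At an unadjusted p under 0.05, the 24-h test held 4 of 10 (Usp2, Por, Tns2 and Cys1), against 5.2% of all genes, and the any-time test held the same 4, against 6.19%.

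**Figure D1:**
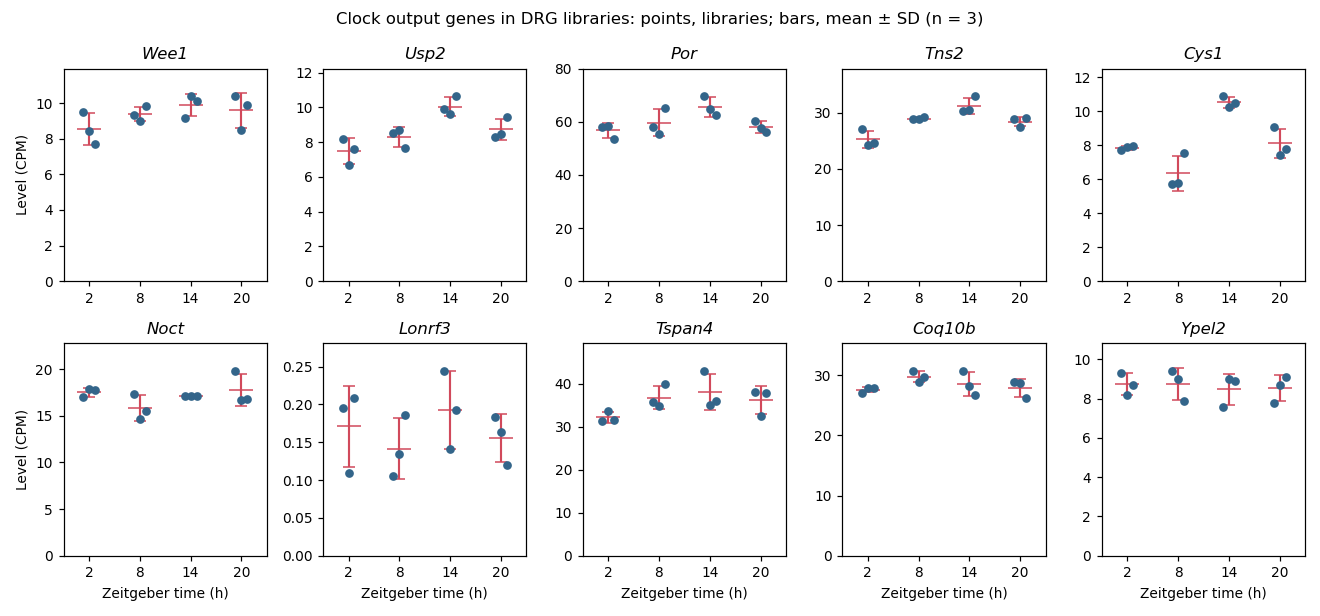
Level of each gene in CPM (vertical axis, from 0) against zeitgeber time in hours (horizontal axis); points are libraries and red bars the mean ± SD of 3. In Usp2, Tns2 and Cys1 every ZT14 point lies above the other 9, and the lowest Usp2 value at ZT14 is 9.62 CPM.

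Usp2 was highest at ZT14. Usp2 was measured at 8.19, 6.71 and 7.61 CPM in the ZT2 libraries, 8.53, 8.72 and 7.67 in those of ZT8, 9.88, 9.62 and 10.6 in those of ZT14 and 8.32, 8.47 and 9.43 in those of ZT20. The 3 ZT14 libraries were above all 9 others, and ZT2 held the lowest. Its mean was 10.1 ± 0.53 CPM at ZT14 and 7.51 ± 0.75 CPM at ZT2 (SD, n = 3 each), a fold change of 1.34 with a 95% interval of 0.23 to 0.61 on the log2 scale. The edgeR p was 0.000511 unadjusted and the adjusted p was 0.269. The fitted 24-h cosine had an amplitude, the log2 distance from mean to peak, of 0.21 ± 0.04 and a peak at 14.7 ± 0.78 h (SE; edgeR adjusted p = 0.456). Usp2 shares 200 exonic bases with Gm49380 and 200 with Gm39325, both on the opposite strand, which ranged between 0.642 and 3.70 CPM and between 0.194 and 0.436 CPM.

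Tns2 had the smallest spread within a time of the 10 genes, a coefficient of variation of 3.67%. Tns2 was measured at 27.1, 24.3 and 24.7 CPM in the ZT2 libraries, 28.9, 28.9 and 29.3 in those of ZT8, 30.4, 30.5 and 33.0 in those of ZT14 and 28.9, 27.5 and 29.0 in those of ZT20. Again the ZT14 libraries were above the other 9, and the ZT2 libraries were below the other 9. The amplitude was 0.15 ± 0.03 with a peak at 13.7 ± 0.65 h (SE; edgeR adjusted p = 0.244, with an unadjusted p of 0.000403), which placed it at rank 42 of 25809 genes, the best rank of the list in that test. ZT14 was 1.23-fold above ZT2, with an edgeR adjusted p of 0.135. In this contrast the log2 interval ran over 0.19 to 0.42.

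Cys1 had the highest ratio between its highest and lowest time of the 10 genes, 1.66. Cys1 was measured at 7.71, 7.88 and 7.95 CPM in the ZT2 libraries, 5.70, 5.79 and 7.51 in those of ZT8, 10.9, 10.2 and 10.5 in those of ZT14 and 9.07, 7.45 and 7.78 in those of ZT20. The ZT14 libraries were above all others, and ZT8 held the 2 lowest. ZT14 averaged 10.5 ± 0.33 CPM and ZT8 6.33 ± 1.02 CPM (SD, n = 3 each). This was a 1.66-fold difference with an unadjusted edgeR p of 2.5e-05 and an adjusted p of 0.166. Its any-time adjusted p was 0.181 (rank 32 of all genes), and its cosine had an amplitude of 0.28 ± 0.05 and a peak at 16.7 ± 0.74 h (SE). The libraries at ZT8 were uneven, with replicate 3 at 7.51 CPM; that library was also the highest of its time in the marker scores of adipocytes (0.19 against -0.70 and -1.12 log2 CPM in the other two), skeletal muscle (3.97 against 2.16 and 1.97), fibroblasts (4.90 against 4.52 and 4.15), smooth muscle and pericytes (4.09 against 3.87 and 3.80) and macrophages (2.83 against 2.13 and 2.30). The same library was highest of its time in the scores of endothelium, myelinating Schwann cells, red cells and sensory neurons too. It was not so in those of satellite glia or of spinal cord and central glia. Without this library the edgeR adjusted p of Cys1 was 0.0469 in the 24-h test and 0.0124 for ZT14 against ZT8. Its Cys1 value was the nearest of its time to those of ZT14, so its omission widens that contrast and is no added support. With any other library left out alone, none of the 10 genes passed.

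A count of genes with every ZT14 library above the other 9 gave 3 of the 10, which are Usp2, Tns2 and Cys1, against 0.81% of all tested genes.

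Promoters of the list, from 250 bases before to 50 after the start (RefSeq, GRCm38.p6), were searched on both strands for the E-box CACGTG, the related CACGTT, the D-box TTANGTAA and the ROR element cores TAGGTCA and TGGGTCA. Of the 10 genes, 9 had a promoter in the table, 10 sequences in all, as Tspan4 has 2 starts. An E-box was in 3 of the 10 (Coq10b, Lonrf3 and the second start of Tspan4), against 7.15% of all 32851 promoters. The D-box was in 1 (Coq10b), against 2.32%, and CACGTT and the ROR cores were in 0, against 4.68% and 6.45%. The 3 promoters with an E-box are shown first, with matches in capitals; the E-box begins 45 bases before the start in Lonrf3, 51 in Tspan4 and 78 in Coq10b, whose D-box match begins 162 bases before.
Coq10b, chr1:55052520-55052819, plus strand: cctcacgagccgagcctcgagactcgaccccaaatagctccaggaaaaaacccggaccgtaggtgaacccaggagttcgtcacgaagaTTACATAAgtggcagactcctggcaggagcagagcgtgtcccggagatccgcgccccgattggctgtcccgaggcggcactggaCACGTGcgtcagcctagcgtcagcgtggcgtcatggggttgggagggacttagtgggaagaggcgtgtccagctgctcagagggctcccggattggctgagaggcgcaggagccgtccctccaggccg
Tspan4, chr7:141476130-141476429, plus strand: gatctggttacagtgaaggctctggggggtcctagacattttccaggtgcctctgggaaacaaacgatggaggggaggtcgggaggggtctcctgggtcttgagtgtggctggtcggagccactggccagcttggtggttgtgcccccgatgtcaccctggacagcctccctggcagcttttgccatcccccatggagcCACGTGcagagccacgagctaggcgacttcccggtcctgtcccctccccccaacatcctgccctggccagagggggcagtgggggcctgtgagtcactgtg
Lonrf3, chrX:36328159-36328458, plus strand: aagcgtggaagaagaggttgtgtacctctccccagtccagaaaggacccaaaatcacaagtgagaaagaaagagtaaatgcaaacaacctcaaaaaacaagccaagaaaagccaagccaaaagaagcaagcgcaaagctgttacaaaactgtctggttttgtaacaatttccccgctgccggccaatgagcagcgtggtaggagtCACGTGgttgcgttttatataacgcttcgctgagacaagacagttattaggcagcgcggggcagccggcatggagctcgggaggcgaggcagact

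The 3 genes whose ZT14 libraries stood above all others had none of these motifs in the window and are given for comparison. Por, Noct, Ypel2 and the first start of Tspan4 had none either, nor did the clock genes Dbp, Nr1d2 and Hlf. Of 23 promoters of clock genes, 6 held an E-box, so a lack of motifs does not set these genes apart. The windows of Usp2 and Tns2 lie inside the annotated gene, at a start used by RefSeq. Usp2, Tns2 and Cys1 have 9, 9 and 8 annotated transcripts, and sequence outside these windows was not searched.
Usp2, chr9:44084670-44084969, plus strand: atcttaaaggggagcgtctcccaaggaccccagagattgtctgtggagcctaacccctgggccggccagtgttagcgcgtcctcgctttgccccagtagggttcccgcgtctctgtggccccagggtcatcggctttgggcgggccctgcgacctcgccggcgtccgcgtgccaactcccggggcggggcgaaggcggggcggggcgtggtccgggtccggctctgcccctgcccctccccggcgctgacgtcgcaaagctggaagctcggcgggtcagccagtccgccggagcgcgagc
Tns2, chr15:102102684-102102983, plus strand: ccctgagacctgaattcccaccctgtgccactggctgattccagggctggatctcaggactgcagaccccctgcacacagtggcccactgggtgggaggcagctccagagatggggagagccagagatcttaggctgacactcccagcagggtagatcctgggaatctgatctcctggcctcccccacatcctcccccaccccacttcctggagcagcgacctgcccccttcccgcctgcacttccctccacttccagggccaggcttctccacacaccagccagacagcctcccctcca
Cys1, chr12:24681746-24682045, minus strand: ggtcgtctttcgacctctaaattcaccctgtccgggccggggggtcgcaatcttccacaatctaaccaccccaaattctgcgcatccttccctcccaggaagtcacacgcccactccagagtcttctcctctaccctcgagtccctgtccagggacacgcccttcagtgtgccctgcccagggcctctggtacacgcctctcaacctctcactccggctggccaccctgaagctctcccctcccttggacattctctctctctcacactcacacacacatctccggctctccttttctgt

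In GRCm38 the gene of Usp2 (ENSMUSG00000032010.15) lies on chromosome 9 at 44067021 to 44095627, that of Tns2 (ENSMUSG00000037003.16) on chromosome 15 at 102100413 to 102116401, both on the plus strand, and that of Cys1 (ENSMUSG00000062563.15) on chromosome 12 at 24665833 to 24681813 on the minus strand. They have 18, 29 and 5 exonic blocks; the counts cover each gene as a whole.

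Por and Tspan4 were highest at ZT14 by a smaller margin. Por was measured at 58.3, 58.5 and 53.7 CPM in the ZT2 libraries, 58.3, 55.6 and 65.5 in those of ZT8, 69.7, 64.8 and 62.6 in those of ZT14 and 60.5, 57.9 and 56.2 in those of ZT20. The ZT14 libraries were above those of ZT2 and overlapped those of ZT8. The amplitude of Por was 0.11 ± 0.03 and ZT14 was 1.16-fold above ZT2 (edgeR adjusted p = 0.697, with an unadjusted p of 0.00816). Tspan4 was measured at 31.4, 33.7 and 31.5 CPM in the ZT2 libraries, 35.7, 34.8 and 39.9 in those of ZT8, 43.0, 35.1 and 36.1 in those of ZT14 and 38.2, 32.5 and 38.0 in those of ZT20. Here too ZT14 and ZT2 did not overlap, while ZT8 and ZT20 reached into the ZT14 range. Its fold change for ZT14 against ZT2 was 1.18 (edgeR adjusted p = 0.859, with an unadjusted p of 0.0187). Tspan4 shares 292 exonic bases with Chid1 on the opposite strand, and reads there may not be assigned by strand. Chid1 itself ranged between 17.7 and 20.4 CPM, and its amplitude was 0.03 ± 0.03 (SE).

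Wee1 had its highest mean at ZT14 too, with overlapping groups. Wee1 was measured at 9.51, 8.45 and 7.71 CPM in the ZT2 libraries, 9.33, 9.03 and 9.83 in those of ZT8, 9.19, 10.4 and 10.1 in those of ZT14 and 10.4, 8.49 and 9.93 in those of ZT20. The lowest ZT14 library was below the highest ZT2 library. ZT14 was 1.16-fold above ZT2 (edgeR adjusted p = 0.948, with an unadjusted p of 0.0459), and the 24-h amplitude was 0.11 ± 0.05 (SE).

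The remaining members had small or unresolved differences. Noct, named for its night-time rise in the frog retina, averaged 17.5 ± 0.48 CPM over the ZT2 libraries, 15.8 ± 1.41 over ZT8, 17.1 ± 0.03 over ZT14 and 17.8 ± 1.75 over ZT20 (SD, n = 3 each). ZT20 was 1.12-fold above ZT8 (edgeR adjusted p = 0.936, with an unadjusted p of 0.0496), and the groups overlapped: ZT20 replicates 2 and 3, at 16.7 and 16.8 CPM, were below ZT8 replicate 1 at 17.4 CPM. Without ZT20 replicate 1, at 19.8 CPM, the log2 difference was 0.083, against 0.17 with it, and without the library of the highest muscle score at each time it was 0.069. Coq10b ranged between 26.2 and 30.7 CPM over all libraries. It was the 1 member whose ZT20 libraries were all below its ZT8 libraries, at 28.8, 28.6 and 26.2 CPM against 30.7, 28.8 and 29.7 CPM (4.54% of all genes have that order without overlap). The order hangs on ZT20 replicate 1 at 28.825 CPM and ZT8 replicate 2 at 28.841 CPM, which are equal for practical purposes. Coq10b shares 343 exonic bases with E330011M16Rik on the opposite strand, which ranged between 0.0999 and 0.322 CPM. Ypel2 ranged between 7.54 and 9.40 CPM, with an amplitude of 0.03 ± 0.05 (SE). For ZT14 against ZT2 the 95% intervals allowed fold changes of 0.838 to 1.12 for Ypel2, 0.871 to 1.1 for Noct and 0.945 to 1.13 for Coq10b. For Lonrf3 they allowed 0.543 to 2.33, so this gene was not resolved at its depth.

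ZT14 and ZT2 are 12 h apart. At an unadjusted p under 0.05, 6 of the 10 genes were higher at ZT14 (Wee1, Usp2, Por, Tns2, Cys1 and Tspan4), against 2.9% of all genes, and 0 were lower, against 2.29%. With the adipocyte score as a covariate 3 of the 6 kept an unadjusted p under 0.05 (Usp2, Tns2 and Cys1), while the log2 difference was 0.18 for Wee1, 0.083 for Por and 0.11 for Tspan4. With the smooth muscle and pericyte score the same 3 did. Wee1 had such a p in 10 of 23 other settings, and Tspan4 was at 0.14 without ZT14 replicate 1, against 0.24 with it. After adjustment 0 passed, with 0.0465% of all genes called (with DESeq2 2, Usp2 and Tns2, against 0.411%). In 5 of the 10 all ZT14 libraries were above all ZT2 libraries, an order found for 5.79% of genes, and in 0 were they all below, found for 5.38%. The median log2 fold change of the list was 0.21, against 0.00 over all genes. For the other pair 12 h apart, ZT20 against ZT8, the median over the list was 0.00, and 2 of the 10 genes were higher at an unadjusted p under 0.05, which were Cys1, 1.28-fold, and Noct, whose difference rested on 1 library, against 2.87% of all genes; 0 were lower, against 2.41%, and after adjustment 0 passed, against 0.0232%. Libraries of ZT20 were all above those of ZT8 in 0 of the 10, against 5.35% of all genes. From the same fit, ZT20 against ZT14, which shares its ZT14 libraries with the first contrast, had 4 of the 10 lower at ZT20 at that level (Usp2, Por, Tns2 and Cys1, with fold changes of 0.87, 0.886, 0.91 and 0.77) and 0 higher, each against 3.14% of all genes. After adjustment 0 passed, against 0.0426%.

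The other 3 contrasts use the same libraries again. For ZT14 against ZT8, 2 of the 10 were higher at an unadjusted p under 0.05 (Usp2 and Cys1), against 3.5% of all genes, and 0 were lower, against 2.8%. In 3 of the 10 (Usp2, Tns2 and Cys1) the ZT14 libraries were all above those of ZT8, against 5.61%. After adjustment 0 of the 10 passed in edgeR, against 0.0%, and 1 passed in DESeq2 (Cys1, adjusted p = 5.45e-06), against 0.399%. For ZT8 against ZT2, Tns2 was the 1 gene higher at that level, by 0.20 on the log2 scale, against 2.9% of all genes, and Cys1 the 1 gene lower, with a fold change of 0.807, against 2.88%; after adjustment 0 passed, against 0.0194%. For ZT20 against ZT2, 2 were higher (Usp2 and Tns2), against 3.82%, and 0 lower, against 3.23%, with 0 after adjustment, against 0.00387%.

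**Figure D2:**
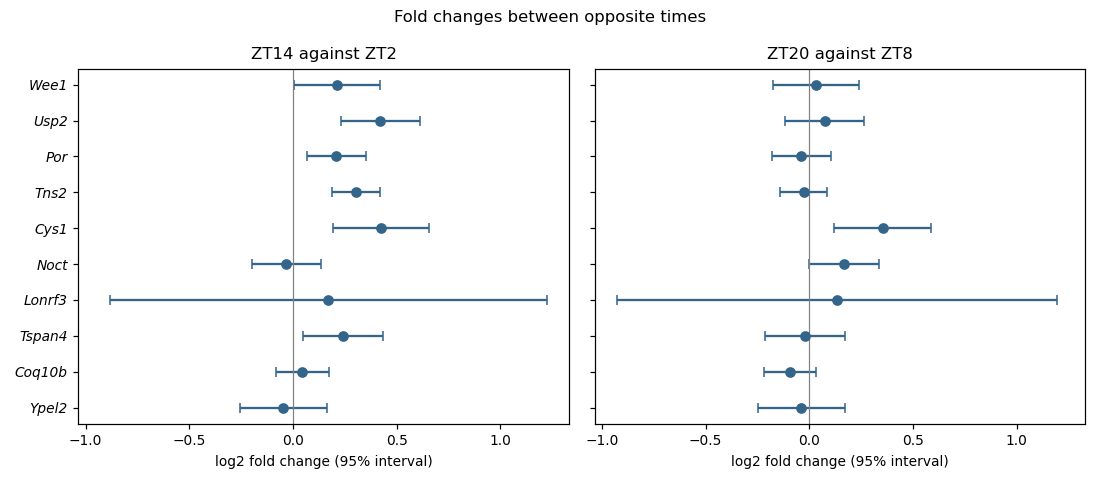
Log2 fold change of each gene with its 95% interval (horizontal axis) for ZT14 against ZT2 on the left and ZT20 against ZT8 on the right, from edgeR over 12 libraries. On the left 6 intervals lie above 0 (Wee1, Usp2, Por, Tns2, Cys1, Tspan4); on the right those of Cys1 and Noct do, and that of Lonrf3 is the widest on either side.

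The list had a median amplitude of 0.11, with a range of 0.03 to 0.28, where the median over all tested genes was 0.10; that median includes many low genes with noisy fits. Set beside genes within 1.5-fold of its own level, Cys1 had a larger amplitude than 95.9% of 2786 genes, Tns2 than 95.6% of 3100, Usp2 than 94.1% of 2811, Tspan4 than 93.4% of 2962 and Por than 92.9% of 2270. Wee1 and Noct exceeded 80.4% and 80.5%, Coq10b 60.1%, Ypel2 16.9% and Lonrf3 8.13%. Of the 13 genes on the list of Per, Cry and REV-ERB genes, PAR bZIP factors and their like, 7 passed the 24-h test after adjustment, and the median amplitude was 0.36. That of 6 tested clock activators and genes in phase with them was 0.13. The highest was that of Dbp, a PAR bZIP factor, at 1.11 ± 0.12 (SE). Of the 6 activators 1 passed, Arntl, which encodes BMAL1, with a peak at 23.1 ± 0.25 h (SE). Among the 13, Tef, with 0.20 ± 0.02 the shallowest that passed, had an amplitude like that of Usp2, whose SE was larger. Cry1, at 0.16 ± 0.03, was below the fitted values of Usp2 and Cys1.

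**Figure D3:**
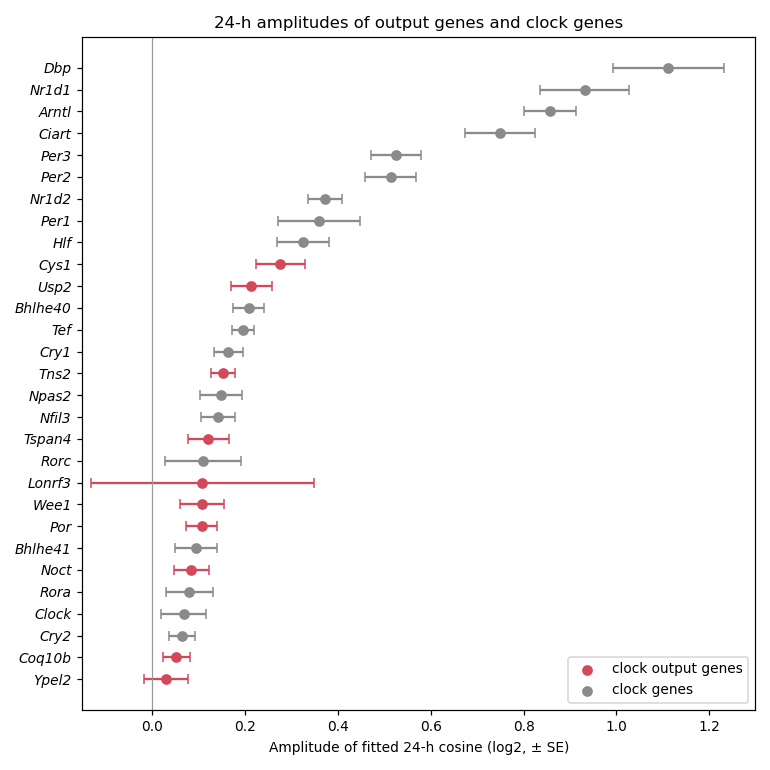
Amplitude of the fitted 24-h cosine in log2 units with its SE (horizontal axis) for the 10 output genes in red and 19 clock genes in grey, in order of size. Cys1 (0.28) and Usp2 (0.21) are the highest of the red points, and Dbp (1.11) is the highest of all.

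Peak times are given for the 4 output genes with an unadjusted 24-h p under 0.05. Por, Tns2, Usp2 and Cys1 had peaks at 13.3 ± 1.17, 13.7 ± 0.65, 14.7 ± 0.78 and 16.7 ± 0.74 h. Dbp, Per3, Hlf and Per2 had theirs at 9.88 ± 0.41, 10.7 ± 0.39, 11.3 ± 0.65 and 12.0 ± 0.40 h (SE). Cry1, a late repressor of the loop, was at 16.6 ± 0.73 h. With the adipocyte score as a covariate the peak of Por was at 11.7 h. With 4 times spaced by 6 h a peak is read from few points, and differences between peaks were not tested.

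**Figure D4:**
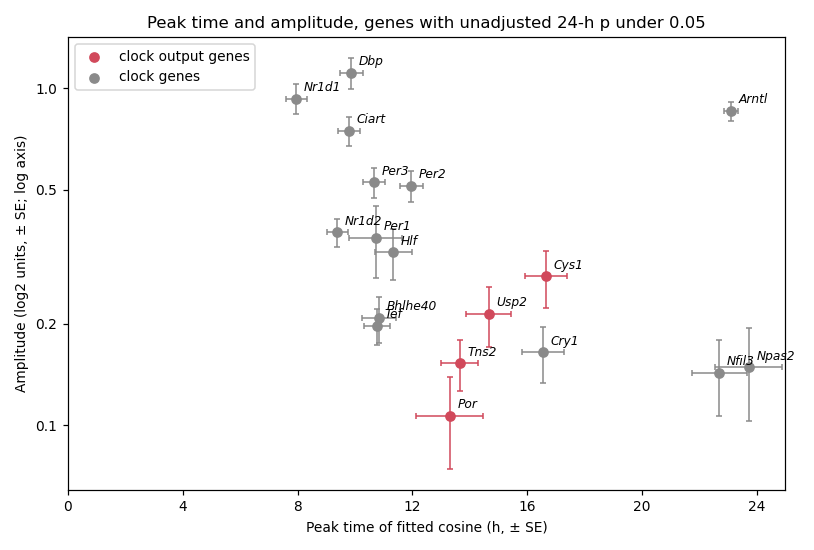
Peak time in hours (horizontal axis) against amplitude in log2 units (vertical log axis), each ± SE, for output genes (red) and clock genes (grey) with an unadjusted 24-h p under 0.05. The 4 red points lie between 13.3 and 16.7 h, to the right of the group from Nr1d1 (7.96 h) to Per2 (12.0 h).

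A further list, also chosen with earlier results of these data known, held 20 genes known as clock-controlled in other tissues, 19 of them tested. Of these, 1 passed the 24-h test after adjustment, the flavin monooxygenase gene Fmo2, against 0.0659% of all genes. At an unadjusted p under 0.05 there were 9, against 5.2%: Tsc22d3, Fkbp5, Litaf, Klf9, Klf10, Klf15, Cdkn1a, Fmo2 and Ppard. For ZT14 against ZT2, 14 of 19 were above 0 with a median log2 fold change of 0.07. Tsc22d3 and Fkbp5 had peaks at 12.2 ± 1.22 and 13.1 ± 1.16 h and amplitudes of 0.10 ± 0.03 and 0.14 ± 0.04 (SE). Other genes of the list had other courses. Pdk4 averaged 5.56 CPM at ZT2, its highest time, and 4.43 CPM at ZT14, its lowest, with overlapping libraries, and Klf9 had its highest mean at ZT8.

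The most abundant paralog had a smaller fitted amplitude than its member in each of the 9 pairs, a difference that was not tested. For Lonrf3 (0.11 ± 0.24) and Ypel2 (0.03 ± 0.05) the SE of the member exceeded its amplitude. Over all 23 paralogs amplitudes ran from 0.007 to 0.27, so less abundant paralogs were not all below their member. Of 23 tested, 0 passed the 24-h test, against 0.0659% of all genes, and 2 had an unadjusted p under 0.05, Usp21 and Lonrf1, against 5.2%, with a median amplitude of 0.04. Usp21, the nearest relative of Usp2, was more abundant (23.6 CPM) and had an amplitude of 0.12 ± 0.03 (edgeR adjusted p = 0.797, with an unadjusted p of 0.0159). Tns1 was at 109.7 CPM with an amplitude of 0.05 ± 0.02. Angel1, related to Noct, was at 68.4 CPM with 0.01 ± 0.02, and Cd9, a tetraspanin like Tspan4, at 1397 CPM with 0.02 ± 0.02. Coq10a was as abundant as Coq10b (28.3 CPM) with 0.04 ± 0.04, Mtrr, a reductase built like Por, was at 6.97 CPM with 0.03 ± 0.04, and Pkmyt1, the membrane-bound relative of Wee1, at 12.6 CPM with 0.06 ± 0.05. Lonrf2, at 38.4 CPM, and Ypel3, at 619 CPM, far exceeded Lonrf3 and Ypel2 and had amplitudes of 0.03 ± 0.03 each (SE).

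Lists of genes related in function to 4 of the products were compared with all genes. Of all genes, 0.0659% were called in the 24-h test after adjustment and 5.2% at an unadjusted p under 0.05. Among 10 cell cycle genes around CDK1, the target of WEE1, 0 passed and 0 had an unadjusted p under 0.05 in the 24-h test. Among 11 oxygenase genes, most of whose products draw electrons from POR, the counts were 0 and 2 (Cyp2j9 and Cyp2d22). They were 0 and 0 among 11 genes of coenzyme Q synthesis. Among 9 genes of deadenylases, the class to which NOCT was long assigned, and of their partners, they were 0 and 0. At the background rate lists of this size would hold hardly any call after adjustment.

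Genes with the most similar course were sought by the root mean square difference of centred log2 levels over the 12 libraries, among 16258 genes of 1 CPM or more. For Usp2 these were Galnt16, a glycosyltransferase gene, and Pdgfrb, a receptor of pericytes and fibroblasts, both with a difference of 0.08 where Usp2 itself varied by 0.18 about its mean. For Tns2 they were Galnt16 and Slc1a5, an amino acid transporter gene, with 0.06 each against 0.12. For Por they were Lima1 and Alg5, with 0.05 each against 0.11. For Cys1 they were Col6a2, a collagen gene, and Loxl1, a lysyl oxidase gene, with 0.14 each against 0.29.

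Markers of other cells differed between libraries too, and in bulk tissue more cells of a type and more RNA per cell cannot be told apart. Sensory neuron markers were steady, the score (mean log2 CPM of 8 markers) lying between 9.99 and 10.1. Summed levels of 8 adipocyte markers, none of them at 0 in every library, were 9.84 to 26.8 CPM at ZT14 and 4.84 to 9.76 CPM at ZT2, and 7 of 7 tested were above 0 in that contrast. Those of 6 smooth muscle and pericyte markers were 158.3 to 184 CPM at ZT14 and 149 to 159 CPM at ZT2, with 6 of 6 above 0. Those of 6 fibroblast markers were 638 to 736 CPM at ZT14 and 557 to 683 CPM at ZT2, also with 6 of 6 above 0. Summed skeletal muscle markers ranged between 192.8 and 1198 CPM, both extremes at ZT20, with 7 of 14 above 0 for ZT14 against ZT2. Of these, Pvalb alone gave 152 to 244 CPM over the libraries, and 164 of the 192.8 CPM in ZT20 replicate 2. Acta1 ranged between 7.56 and 290 CPM and Ckm between 1.80 and 78.6 CPM, so the sum understates how far such markers differed. Summed levels of 6 red cell genes were 3690 to 4039 CPM at ZT14, 1663 to 3992 CPM at ZT2 and 781 to 1231 CPM at ZT20. For ZT14 against ZT2 these ranges overlapped, with 6 of 6 above 0. In that contrast 5 of 6 markers were above 0 for myelinating Schwann cells and 5 of 6 for endothelium. For satellite glia 3 of 6 were, and for macrophages 2 of 6. With the adipocyte score as a covariate the amplitude of Por was 0.05 and that of Tspan4 0.06, and with the smooth muscle and pericyte score 0.06 and 0.07. Under these 2 covariates Tns2 had 0.15 each time, Usp2 0.25 and 0.23, and Cys1 0.21 and 0.24. With the skeletal muscle score Por had 0.10 and Tspan4 0.11, and with the fibroblast score 0.08 and 0.09. The part of these cells in the results was not tested further.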

How the data were processed

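The libraries were made from poly(A)-enriched RNA with random priming and read as pairs of 150 bases on a DNA nanoball sequencer, per the labels' protocols. HISAT2 2.2.1, StringTie 2.1.5 and the build GRCm38.p6 are named in the submitters' processing notes, and no role is given there. Estimated counts, which are not whole numbers, were deposited for each gene; the sources used here do not say how they were made, nor whether strand was used. The commonest value above 10 of a library, 16.4 to 17.2, is shared by genes of very different length, which marks a coverage scale. In units of 1000000, totals were 89.6 to 124.7 a library, and an approximation from median transcript length gave 47.9 to 67.1 reads. The 348 loci assembled without an Ensembl ID, 0.203% to 0.231% of a library, were left out; 38462 of 38594 Ensembl IDs matched GENCODE M21 without the version.

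Values were rounded and fitted in edgeR 4.0.16 (R 4.3.3; filterByExpr, TMM, robust quasi-likelihood F tests) in 1 model of the 4 times over 12 libraries and 25809 genes, after a check on simulated data. The model held a 24-h cosine and sine pair and a 12-h term, and amplitudes and peaks come from the 24-h pair alone. P-values were adjusted by Benjamini-Hochberg over all genes, with 0.05 as the threshold. CPM uses TMM-scaled totals, and scores are mean log2 CPM (prior count 2). All members are named; from each list those past the 24-h test, and of the paralogs of a member the most abundant, with the most similar genes by root mean square difference; other list genes were named after their values were seen. The members and lists were chosen with earlier results of these data known. Alternatives were DESeq2 1.42.0, limma-trend (limma 3.58.1), other scaling, filter, scale, block, covariates and omitted libraries; the covariates for adipocyte, fibroblast and for smooth muscle and pericyte scores were added after seeing the data. Tables and figures used Python 3.11.15, pandas 2.3.3 and matplotlib 3.10.9.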

Additional observations from a re-analysis of the deposited data

How the results depend on the processing

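Over 23 other settings the amplitude was 0.18 to 0.25 for Usp2, 0.13 to 0.18 for Tns2 and 0.21 to 0.32 for Cys1, each with an unadjusted 24-h p under 0.05 in all 23. That of Por was 0.05 to 0.12, with such a p in 19 of 23. DESeq2 called 3 of the 10 genes (Usp2, Tns2 and Cys1) in the 24-h test and 3 in the any-time test, and 3 pairs of gene and contrast, with 162 genes called in its 24-h test and 292 in its any-time test against 17 and 13 in edgeR. Its adjusted 24-h p was 0.0287 for Usp2, 0.000465 for Tns2 and 0.00678 for Cys1; the range over the settings was 0.0287 to 0.902, 0.000465 to 0.745 and 0.00678 to 0.701. Leaving out 1 library gave 0 to 1 genes in the 24-h test, 0 to 1 in the any-time test and 0 to 1 pairs in the contrasts, each time Cys1 without ZT8 replicate 3. With the muscle score as a covariate 1 pair passed (Cys1, ZT14 against ZT8, adjusted p = 0.0449). limma-trend called 0 of the 10.

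Several fold changes near 0 changed sign, none of them past a threshold. For ZT14 against ZT2, leaving out the library of the highest muscle score at each time gave -0.27 for Lonrf3 and -0.0046 for Coq10b (log2). The adipocyte covariate gave -0.22 for Lonrf3, -0.026 for Coq10b and 0.10 for Ypel2. The smooth muscle and pericyte covariate gave -0.40, -0.0100 and 0.079, and the fibroblast covariate gave 7.5e-05 for Ypel2. For ZT20 against ZT8, the fibroblast covariate gave -0.00087 for Wee1, and without the libraries richest in muscle Por was at 0.0031 and Tspan4 at 0.0024. With 1 library left out the ZT14 contrast ran over -0.071 to 0.34 for Lonrf3, -0.012 to 0.085 for Coq10b and -0.096 to 0.029 for Ypel2. The ZT20 contrast ran over -0.028 to 0.11 for Wee1, -0.089 to 0.027 for Por, -0.041 to 0.37 for Lonrf3, -0.062 to 0.045 for Tspan4 and -0.11 to 0.021 for Ypel2. The cause was not tested.

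Libraries of the same replicate number did not deviate together (18 pairs, r between -0.065 and 0.078), so the numbers were not taken as pairs; with a replicate block 0 of the 10 genes passed the 24-h test, 0 the any-time test and 0 pairs the contrasts, and 4 genes passed the 24-h test over all genes. That count was 4 without the libraries richest in muscle, 9 with the smooth muscle and pericyte covariate and 5 to 17 with 1 library left out, and the any-time count 4 to 22. The values are on a coverage scale, so counting error is approximate; Lonrf3 is limited by depth.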
